A study of Mus musculus with 12 samples.

Results

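The transcripts described here are those of the 3 Runx transcription factors, Runx1, Runx2 and Runx3, and of their shared partner Cbfb. They were chosen by symbol, as the rows of the deposited expression table that carry 1 of these 4 names, and they are 4 of the 17536 genes in that table. The study sequenced RNA from articular chondrocytes to ask what loss of Runx3 does in the layers of growing joint cartilage. Its mice were 5-day-old C57BL/6 animals, either Col2a1-Cre; Runx3 fl/fl, named R3-cKO, or Runx3 fl/fl littermates without Cre, named R3-Cntl, so that both genotypes carried the floxed alleles. Cartilage from the proximal femur and distal tibia was digested in steps, which released cells of the superficial zone (SFZ) first and cells of the deep zone (DZ) after them. Each of the 4 groups held 3 libraries, 12 in all. Cre was driven by the Col2a1 promoter, so recombination was limited to cells in which that promoter had been active. By the study's account the libraries came from individual mice and the cells were kept as a monolayer, but which SFZ and DZ libraries came from the same mouse is not stated.

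Runx proteins bind DNA through a conserved Runt domain, and Cbfb, which does not contact DNA itself, binds that domain and stabilises the complex. Runx2 is required for osteoblast formation and chondrocyte hypertrophy, Runx3 acts with it in chondrocyte maturation, and Runx1 is best known for blood formation and is also expressed in cartilage progenitors. Because all of them recognise the same short DNA motif, the relative abundance of the paralogs is a natural quantity to read beside the level of each.

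Values were read as FPKM, fragment numbers scaled to transcript length and library size, a unit inferred from the values. On such a scale per length, levels of different genes can be set side by side, and comparisons between genes below rest on that unit. The sum of all values ran from 392241 to 429213 FPKM per library. Read counts were not used here. From the smallest steps between the values, depth was estimated at 30400000 to 35700000 fragments per library. Steps were sought only within a preset window, which bounds the estimate in advance, so this depth is an assumption more than a measurement. If it holds, at least 309 fragments stand behind every value of the 4 genes, with a counting error of at most 5.69%. Fewer cells of a type and less RNA per cell cannot be told apart in such libraries.

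How alike the 3 paralogs are bears on whether reads could be assigned to the wrong one. The stretch below is part of the Runt domain coding sequence and was the 120-base run without gaps in which the 3 genes were most alike in the GENCODE gene models for mm9. It spans 2 exons in each gene. It runs within chr16:92689349-92695819 on the reverse strand for Runx1, chr17:44861822-44872272 on the reverse strand for Runx2 and chr4:134708881-134711225 on the forward strand for Runx3. Capitals mark bases identical in all 3 genes.
Runx1: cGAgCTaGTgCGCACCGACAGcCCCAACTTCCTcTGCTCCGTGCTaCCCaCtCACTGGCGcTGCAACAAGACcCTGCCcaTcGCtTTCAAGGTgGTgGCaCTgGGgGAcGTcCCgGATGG
Runx2: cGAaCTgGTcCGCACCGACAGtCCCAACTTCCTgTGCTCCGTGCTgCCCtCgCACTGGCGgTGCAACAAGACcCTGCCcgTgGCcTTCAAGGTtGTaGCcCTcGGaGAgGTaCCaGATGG
Runx3: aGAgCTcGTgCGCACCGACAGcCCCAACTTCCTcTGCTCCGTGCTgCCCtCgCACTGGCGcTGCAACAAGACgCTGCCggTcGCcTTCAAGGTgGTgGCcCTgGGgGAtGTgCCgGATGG
Of the 120 bases, 97 (80.8%) were identical in all 3. Over all their protein-coding GENCODE transcripts, UTRs included, Runx1 and Runx3 had 16 runs of 25 bases in common, Runx2 and Runx3 had 4, and Runx1 and Runx2 had 2. No run of 50 bases was common to any pair, and the reads were 100 bases long and paired.

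Runx3, the gene targeted in the mutant, came first as a check of the labels. Runx3 (gene ID 12399) lies on the forward strand at chr4:134676567-134733905 in mm9, and the table counts it over 1 transcript. SFZ libraries 1, 2 and 3 gave FPKM values of 10.73, 5.98 and 6.65 under the R3-Cntl label, against 11.83, 9.07 and 3.42 under the R3-cKO label. DZ libraries 1, 2 and 3 gave 12.67, 12.65 and 7.66 under the R3-Cntl label, against 15.95, 12.66 and 8.14 under the R3-cKO label. The genotypes overlapped in both zones, and the highest library of all 12 was one labelled R3-cKO. Group means with their SD (n = 3) were 7.79 ± 2.57 and 8.11 ± 4.29 FPKM for R3-Cntl and R3-cKO in SFZ, and 10.99 ± 2.89 and 12.25 ± 3.92 FPKM in DZ. By limma, the change from R3-Cntl to R3-cKO was −0.04 on the log2 scale in SFZ (SE 0.43, 95% interval −1.08 to 0.99, adjusted p 1) and 0.13 in DZ (SE 0.28, interval −0.55 to 0.81, adjusted p 0.999). No lower Runx3 level was detected in the libraries labelled R3-cKO, although the intervals of both zones leave room for one. Blocked by replicate number, the DZ interval was −0.11 to 0.37. Directions between genotypes below are directions between labels. The sign of the SFZ change rested on single libraries: it was 0.18 without R3-Cntl SFZ 1 and 0.41 without labelled R3-cKO SFZ 3, and as low as −0.36 without labelled R3-cKO SFZ 1. The DZ change turned to −0.09 without R3-Cntl DZ 3 and to −0.07 without labelled R3-cKO DZ 1. A value summed over a whole transcript does not show whether the floxed part was missing from it, and exon-level coverage was not analysed here.

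Runx2, the factor of hypertrophy and bone, has gene ID 12393 and lies at chr17:44632936-44951746 on the reverse strand. Its SFZ levels in FPKM were 12.28, 11.69 and 9.16 for R3-Cntl libraries 1 to 3, beside 13.2, 11.37 and 11.75 for those labelled R3-cKO. Its DZ levels were 6.49, 6.81 and 8.85 for R3-Cntl, beside 10.31, 9.21 and 8.38 for those labelled R3-cKO. DZ was lower than SFZ in each genotype with no overlap, while over both genotypes the highest DZ library, labelled R3-cKO DZ 1, passed the lowest SFZ library, R3-Cntl SFZ 3.

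Runx1, the paralog of blood formation, has gene ID 12394 and lies at chr16:92601712-92826311 on the reverse strand. FPKM levels in SFZ were 2.32, 3.79 and 3.34 for R3-Cntl and 4.03, 1.75 and 4.27 for labelled R3-cKO. Those in DZ were 1.73, 2.15 and 3.37 for R3-Cntl and 3.12, 2.97 and 5.82 for labelled R3-cKO. All 4 groups overlapped, with the lowest library in R3-Cntl DZ and the highest in labelled R3-cKO DZ.

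Cbfb, the partner without DNA contacts of its own, has gene ID 12400 and lies at chr8:107694574-107741886 on the forward strand. R3-Cntl SFZ cells held 55.78, 52.94 and 52.78 FPKM, and labelled R3-cKO SFZ cells 55.91, 47.97 and 57.4 FPKM. R3-Cntl DZ cells held 41.43, 52.06 and 49.95 FPKM, and labelled R3-cKO DZ cells 42.34, 46.56 and 34.67 FPKM, so that the zones did not overlap within a genotype. Cbfb varied least of the 4, with a highest library 1.66 times the lowest, against 2.03 for Runx2, 3.36 for Runx1 and 4.66 for Runx3.

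**Figure D1:**
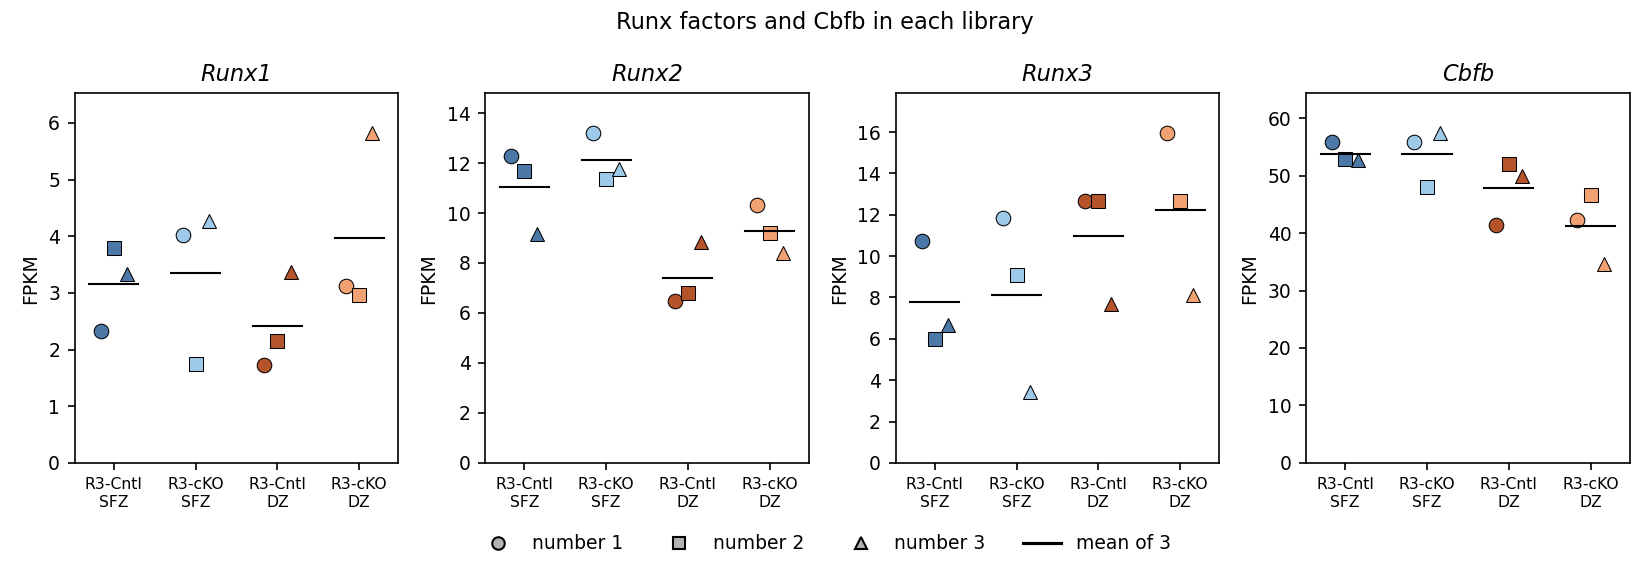
Level in FPKM of Runx1, Runx2, Runx3 and Cbfb in each of the 12 libraries, by zone and genotype, with points shaped by library number and a line at the mean of each group of 3. Runx3 in the libraries labelled R3-cKO lies among or above the R3-Cntl values in all but 1 SFZ library (3.42 FPKM).

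In median level over the 12 libraries the order was Cbfb (51.01 FPKM), Runx3 (9.9 FPKM), Runx2 (9.76 FPKM) and Runx1 (3.23 FPKM). Over both zones Runx2 and Runx3 did not differ beyond their spread, and their order depended on the zone, with Runx2 above Runx3 in 6 of 6 SFZ libraries and Runx3 above Runx2 in 4 of 6 DZ libraries. Cbfb exceeded the Runx sum in 12 of 12 libraries and Runx1 was the lowest of the paralogs in 11 of 12. The exception was labelled R3-cKO SFZ 3, where Runx1 (4.27 FPKM) was above Runx3 (3.42 FPKM). Among all genes the mean levels lay at percentile 92.0 for Cbfb, 66.1 for Runx2, 65.7 for Runx3 and 46.1 for Runx1.

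Between genotypes, which asks whether another Runx gene moved with the targeted one, limma called 0 of 11537 genes in SFZ (0%, with 34 at an unadjusted p under 0.05) and 0 of 11091 in DZ (0%, with 404). In SFZ the members changed by 0.03 for Runx1 (SE 0.29), 0.13 for Runx2 (SE 0.14) and −0.01 for Cbfb (SE 0.11) on the log2 scale, each with an adjusted p of 1. The sign for Cbfb depended on the scaling, with 0.00 (just above 0) under median-of-ratios size factors, and on single libraries, with 0.02 without R3-Cntl SFZ 1 and 0.07 without labelled R3-cKO SFZ 2. Runx1 in SFZ turned to −0.13 without R3-Cntl SFZ 1, −0.11 without labelled R3-cKO SFZ 1 and −0.14 without labelled R3-cKO SFZ 3. Runx2 in SFZ was 0.01 without R3-Cntl SFZ 3. In DZ they changed by 0.52 for Runx1 (SE 0.27, interval −0.13 to 1.18), 0.30 for Runx2 (SE 0.15, interval −0.05 to 0.66) and −0.21 for Cbfb (SE 0.16, interval −0.59 to 0.16), each with an adjusted p of 0.999. Without labelled R3-cKO DZ 3 the change was 0.27 for Runx1 and −0.10 for Cbfb, and Runx1 was also 0.27 with a pseudocount of 5. Without the replicate number as a block these intervals include 0. With it, that of Runx1 in DZ was 0.24 to 0.81 (adjusted p 0.183). None of the 4 members had genotype groups without overlap, in SFZ (2.4% of genes had such groups) or in DZ (8.03%). The difference between the zones' genotype changes was 0.50 for Runx1, 0.17 for Runx2, 0.17 for Runx3 and −0.21 for Cbfb, with an adjusted p of 0.999 each and 0 of 11765 genes called (0%, with 99 at an unadjusted p under 0.05). For Runx3 it was −0.05 without R3-Cntl SFZ 1, −0.28 without labelled R3-cKO SFZ 3, −0.05 without R3-Cntl DZ 3 and −0.03 without labelled R3-cKO DZ 1. Leaving out 1 library gave 0.20 to 0.69 for Runx1, 0.10 to 0.30 for Runx2 and −0.31 to −0.09 for Cbfb. After quantile normalization Runx2 was 0.05.

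Libraries of the labelled R3-cKO groups also differed from R3-Cntl in Y-linked transcripts. The summed FPKM of Ddx3y, Eif2s3y, Kdm5d and Uty was 42.94, 12.09 and 52.35 in R3-Cntl SFZ and 39.96, 16.83 and 17.01 in R3-Cntl DZ. Under the R3-cKO label that sum was 28.34, 0.06 and 0.03 in SFZ and 29.59, 0.01 and 0.03 in DZ. Libraries 2 and 3 labelled R3-cKO thus lacked these transcripts in both zones, whereas library 1 carried them, as did all R3-Cntl libraries. The part of this difference in the genotype results was not tested. Between the libraries numbered 1, which carried these transcripts in both genotypes, the labelled R3-cKO level in SFZ was higher by 0.60 for Runx1, 0.10 for Runx2 and 0.13 for Runx3 on the log2 scale, with 0.00 for Cbfb. In DZ the same differences were 0.59, 0.59, 0.31 and 0.03, and each rests on 1 library a genotype.

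Between zones, the comparison of the superficial with the deep layer, limma called 2424 of 11765 genes over both genotypes (20.6%), 450 higher in DZ (3.82%) and 1974 lower (16.8%). That split depended on scaling: median-of-ratios size factors gave 934 higher and 968 lower, and quantile normalization 1098 and 828. The median change of all genes was −0.14 as deposited, 0.00 with size factors and 0.03 after quantile normalization. The count was 1245 without R3-Cntl SFZ 2, 1545 without R3-Cntl DZ 1 and 1588 without labelled R3-cKO DZ 1. Of the 4 members 1 was called, Runx2, which fell by 0.44 on the log2 scale in DZ (SE 0.10, adjusted p 0.0147), or −0.30 relative to the median gene. It was past the threshold in 12 of 12 fits that left out a library (adjusted p 0.00954 to 0.0448), but not with size factors (−0.29, adjusted p 0.0606) or quantile normalization (−0.26, adjusted p 0.0938). Runx3 was higher in DZ by 0.54 (SE 0.28, interval −0.07 to 1.16, adjusted p 0.187), or 0.68 relative to the median gene. Without labelled R3-cKO SFZ 3 it was 0.32. With the replicate number as a block, Runx3 was past the threshold (limma interval 0.23 to 0.85, adjusted p 0.0198). It was higher in DZ in 6 of 6 same-numbered pairs, although such libraries did not deviate together in R3-Cntl. Cbfb changed by −0.28 (SE 0.09, interval −0.48 to −0.07, adjusted p 0.0578), or −0.14 relative to the median. It was −0.12 with size factors (adjusted p 0.351) and −0.17 after quantile normalization (0.204), and was past the threshold without labelled R3-cKO SFZ 2 (0.0384) or labelled R3-cKO DZ 2 (0.0408). Runx1 changed by −0.04 (SE 0.21, adjusted p 0.905), and by 0.08 with size factors and 0.20 after quantile normalization, so its direction depended on the scaling. It was also above 0 without R3-Cntl SFZ 2 (0.01), R3-Cntl DZ 1 (0.03), or labelled R3-cKO SFZ 1 (0.02), SFZ 3 (0.04), DZ 1 (0.01) or DZ 2 (0.03). With 6 libraries against 6, 0 of the 4 members had groups without overlap (11.3% of genes).

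Within each genotype alone, Runx2 and Cbfb were again lower in DZ and Runx3 higher, except that Cbfb in R3-Cntl was 0.02 with size factors. In R3-Cntl the changes were −0.52 for Runx2 (adjusted p 0.113), 0.46 for Runx3 (0.292), −0.29 for Runx1 (0.421) and −0.17 for Cbfb (0.372). After quantile normalization Runx1 there became 0.03, Runx2 −0.29 and Cbfb −0.05; without DZ 1 Runx1 was −0.14 and Cbfb −0.08. In the libraries labelled R3-cKO the changes were −0.35 for Runx2 (0.292), 0.63 for Runx3 (0.575), 0.20 for Runx1 (0.855) and −0.38 for Cbfb (0.333), and Runx1 turned to −0.10 without SFZ 2 and −0.05 without DZ 3, while Runx3 was 0.18 without SFZ 3. None was called, among 140 of 11336 genes in R3-Cntl (1.24%, with 3102 at an unadjusted p under 0.05) and 2 of 11336 in R3-cKO (0.0176%, with 1602). In R3-Cntl that count became 505 without SFZ 1, 0 without SFZ 2, 3 without SFZ 3, 0 without DZ 1, 0 without DZ 2 and 4 without DZ 3, and with labelled R3-cKO 5 without SFZ 3, 1 without SFZ 2 and 0 without any other library. With the number as a block, the labelled R3-cKO count was 352, and no member was among them. There same-numbered libraries deviated together. The blocked limma intervals were −0.56 to −0.14 for Runx2 (adjusted p 0.0835) and 0.22 to 1.04 for Runx3 (0.0911). They were −0.76 to −0.01 for Cbfb (0.163) and −0.28 to 0.69 for Runx1 (0.494). Runx2 and Cbfb had zone groups without overlap in both genotypes, lower in DZ. This held for 32.4% of genes in R3-Cntl in either direction (26.5% lower in DZ), for 21% in labelled R3-cKO (16.8% lower) and for 11.2% lower in both.

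**Figure D2:**
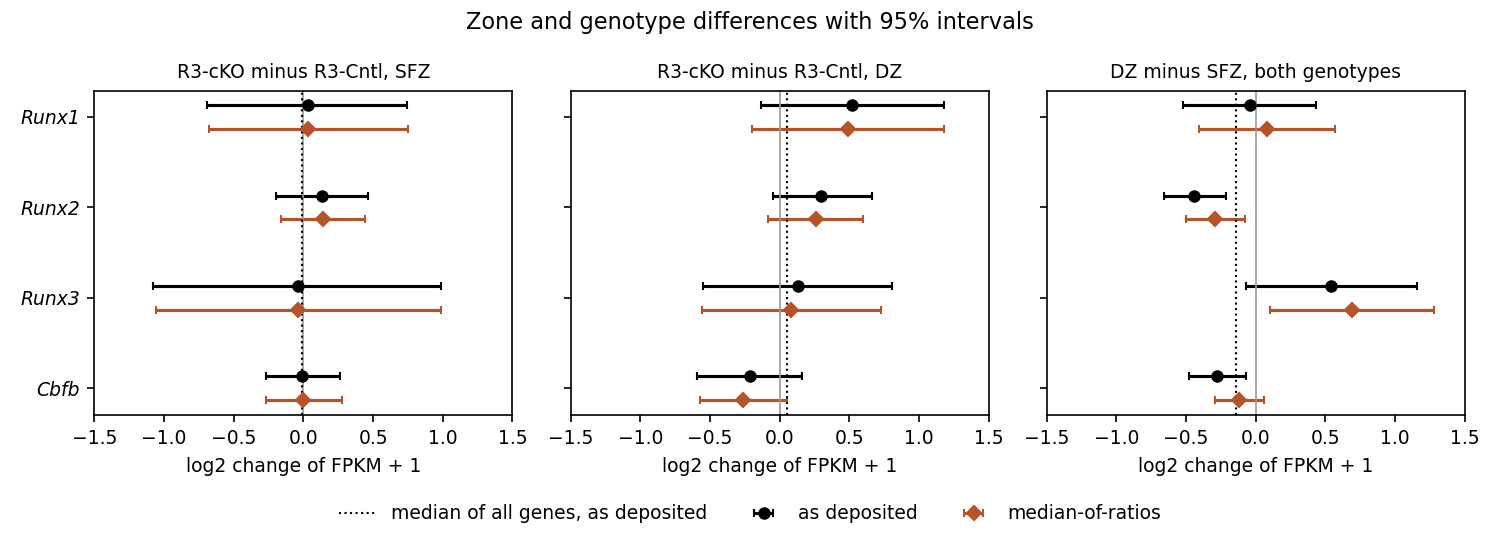
Log2 change of Runx1, Runx2, Runx3 and Cbfb between genotypes in each zone and between zones over both genotypes, with 95% intervals from limma, for values as deposited (circles) and with median-of-ratios size factors (diamonds); dotted lines mark the median of all genes. As deposited, the zone intervals of Runx2 (−0.66 to −0.21) and Cbfb (−0.48 to −0.07) exclude 0 while the genotype intervals of all 4 members, fitted without a replicate block, include it.

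The paralogs' relative abundance moved between zones. As a share of the summed FPKM of the 3 Runx genes, Runx2 made up 48.5, 54.5 and 47.8% in R3-Cntl SFZ and 45.4, 51.2 and 60.4% in labelled R3-cKO SFZ, against 31.1, 31.5 and 44.5% in R3-Cntl DZ and 35.1, 37.1 and 37.5% in labelled R3-cKO DZ. Every SFZ library was above every DZ library. The mean fell from 51.3% to 36.1%, a change of −15.2 percentage points, and the two-sided exact permutation test gave p 0.00216, the smallest that 6 libraries against 6 allow, and 0.0195 after Benjamini-Hochberg adjustment over 9 share tests. The test treats the 12 libraries as independent, although the study describes SFZ and DZ cells from 3 individual mice per genotype. By that account the zones share mice, but which libraries do is not stated. Paired by number, the Runx2 share gave an exact p of 0.0312, the smallest from 6 pairs, and 0.141 after adjustment. Over 9 share tests even that smallest p cannot pass the threshold once adjusted, so the paired test could not decide. Same-numbered libraries did not deviate together between zones in R3-Cntl. Runx3 made up 42.4, 27.9 and 34.7% in R3-Cntl SFZ and 40.7, 40.9 and 17.6% in labelled R3-cKO SFZ, and 60.7, 58.5 and 38.5% in R3-Cntl DZ and 54.3, 51 and 36.4% in labelled R3-cKO DZ. Its mean rose from 34% to 49.9% with overlap (15.9 points, exact permutation p 0.0281, adjusted 0.127). Runx1 held 14.7% and 14% on average (exact permutation p 0.844, adjusted 1), and its direction reversed to 0.347 points under quantile normalization, 0.765 without labelled R3-cKO SFZ 3, 0.442 without R3-Cntl DZ 1 and 0.109 without R3-Cntl DZ 2. Runx3 was above Runx2 in 4 of 6 DZ libraries and in 0 of 6 SFZ libraries, a comparison chosen after the values were seen and given no test.

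**Figure D3:**
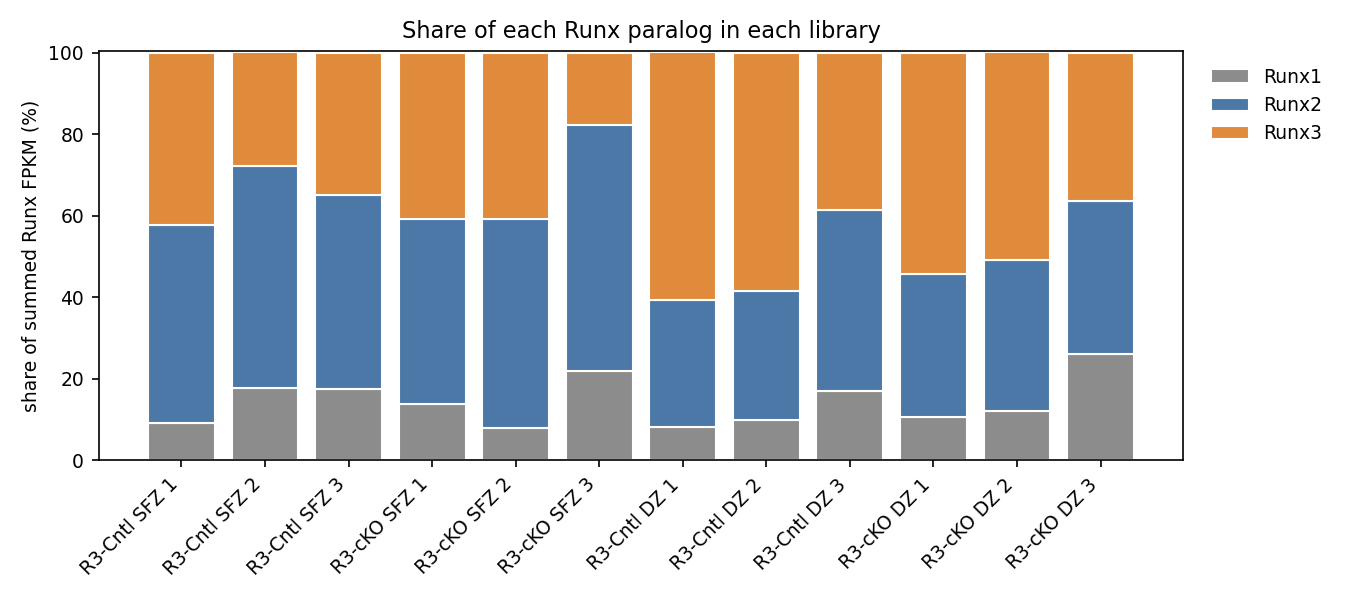
Share of Runx1, Runx2 and Runx3 in their summed FPKM, in percent, in each of the 12 libraries. The Runx2 share was 45.4 to 60.4% in SFZ and 31.1 to 44.5% in DZ.

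With libraries taken as independent, shares did not differ between genotypes beyond their spread. The exact permutation p was 1, 0.7 and 0.8 for Runx1, Runx2 and Runx3 in SFZ and 0.5, 1 and 0.5 in DZ. With 3 libraries against 3 it cannot go below 0.1. Within same-numbered DZ pairs the Runx1 share rose and the Runx3 share fell in each. The exact test by pairs gave p 0.25 for both (adjusted 0.562), the smallest that 3 pairs allow. The summed FPKM of the 3 genes was 25.3, 21.5 and 19.1 in R3-Cntl SFZ and 29.1, 22.2 and 19.4 in labelled R3-cKO SFZ. In DZ it was 20.9, 21.6 and 19.9 in R3-Cntl and 29.4, 24.8 and 22.3 in labelled R3-cKO. The sum overlapped between genotypes in SFZ and did not in DZ, where it was higher under the R3-cKO label. Its mean was 22.8 FPKM over SFZ and 23.2 FPKM over DZ, so the sum differed by less than its spread while the share of Runx2 differed by more. The sum of Runx1 and Runx2 would bear on compensation for Runx3, of which no lower level was detected under the R3-cKO label. Compensation was not tested. R3-Cntl SFZ libraries held 14.6, 15.5 and 12.5 FPKM, labelled R3-cKO SFZ libraries 17.2, 13.1 and 16 FPKM, and the groups overlap. R3-Cntl DZ libraries held 8.22, 8.96 and 12.2 FPKM, labelled R3-cKO DZ libraries 13.4, 12.2 and 14.2 FPKM, and the groups overlap only by 1 library each near 12.2. The ratio of Cbfb to the Runx sum was 1.98, 2.41 and 2.51 in R3-Cntl DZ and 1.44, 1.87 and 1.55 in labelled R3-cKO DZ, which do not overlap. In SFZ it was 2.2, 2.47 and 2.76 in R3-Cntl and 1.92, 2.16 and 2.95 in labelled R3-cKO, which do. Sums and the ratio were given no test.

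The first start sites of the 3 Runx genes hold the motif of the family itself. In RefSeq promoter windows of GRCm38.p6, reaching from 250 bases before the start to 50 after it, all 4 members were matched by 6 windows. The letters TGTGGT or TGCGGT were searched on both strands. The first windows of Runx1, Runx2 and Runx3 held 2, 4 and 2 matches, while the window of Cbfb and the second windows of Runx1 and Runx3 held 0. Of all 32851 windows, 7362 (22.4%) held at least 1 match and 941 (2.86%) at least 2. In the first windows of the 3 Runx genes a pair of matches lay in tandem, as ACCACANNACCACA, a form noticed in these windows and then counted. The 30-base stretches around it are shown because the same arrangement stands at the start of all 3 paralogs; capitals mark the tandem, whose units are TGTGGT on the opposite strand, while the TGCGGT that ends the Runx2 stretch is left in lower case.
Runx1: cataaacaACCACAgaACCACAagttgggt
Runx2: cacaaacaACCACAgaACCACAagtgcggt
Runx3: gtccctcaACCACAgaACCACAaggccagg
In GRCm38.p6 they lie at chr16:92826025-92826054 and chr17:44814583-44814612, both reverse, and chr4:135120503-135120532, forward. The first motif base is base 29 of the transcript in Runx1, base 24 in Runx2, and −134 from the start in Runx3. This tandem stood in 7 of the 32851 windows (0.0213%), 3 of them these. A match describes letters only.

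The 3 genes nearest each member in pattern, by the root mean square difference of centred log2 levels over 12 libraries and 11355 genes, were Copg2, App and Ccng2 for Runx1 (0.166, 0.177 and 0.189, median of all genes 0.45). For Runx2 they were Echdc3, Fchsd1 and 2610002M06Rik (0.113, 0.114 and 0.121, median 0.33). Runx3 was followed by Cnnm4, Psph and Dnajc22 (0.224, 0.227 and 0.228, median 0.58), although Dnajc22, which falls to 0.05 FPKM, drops to rank 5846 with a pseudocount of 0.1. For Cbfb they were Ppil4, Sowahc and Fcho2 (0.086, 0.092 and 0.093, median 0.28).

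The next list holds genes that bind or modify Runx proteins. Of 36 such partners and co-regulators 34 were tested, 1 was called higher in DZ and 16 lower, where 3.82% and 16.8% of all genes were, with a median change of −0.33 against −0.14 for all genes. The scalings gave 2 higher and 8 lower (size factors) and 1 and 8 (quantile), with medians of −0.18 against 0.00 and −0.11 against 0.03. The count of lower calls was 8 without R3-Cntl SFZ 2, 10 without R3-Cntl DZ 1 and 10 without labelled R3-cKO DZ 1. Those with the largest changes included Aes (−1.98, SE 0.43, adjusted p 0.0123), Hdac7 (−1.43, SE 0.30, 0.01), Twist1 (−1.37, SE 0.26, 0.0075), Twist2 (−1.28, SE 0.33, 0.0218) and Tle2 (−1.01, SE 0.22, 0.0123). Aes, a Groucho-family co-repressor, had the highest median of the list over the 12 libraries, 77.61 FPKM. It led in SFZ (median 128.1 FPKM) but not in DZ, where its median was 26.3 FPKM against 58.15 FPKM for Stub1. Ets1, named after its value was seen, was higher (0.73, SE 0.21, 0.0322). Twist2 was not past the threshold without R3-Cntl SFZ 2 (0.0618), R3-Cntl DZ 1 (0.0564) or labelled R3-cKO DZ 1 (0.0548). Ets1 was not past it without R3-Cntl SFZ 2 (0.0862), SFZ 3 (0.0557), DZ 1 (0.0569), DZ 2 (0.0644) or DZ 3 (0.0538), or labelled R3-cKO DZ 1 (0.0582) or DZ 2 (0.0632).

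Lists of Runx targets were read the same way. Of 16 hypertrophy and bone targets 13 were tested, and 0 were called higher and 3 lower in DZ, with a median of 0.24. These counts lie near the 3.82% and 16.8% of all genes called higher and lower. That median was 0.39 with size factors, 0.42 after quantile normalization, 0.02 without a filter on low values, 0.07 without labelled R3-cKO SFZ 3 and 0.40 without R3-Cntl DZ 1, and higher calls were 1 without R3-Cntl SFZ 3 and 2 without labelled R3-cKO SFZ 2. The lower ones were the bone genes Col1a1 (−3.73, SE 0.84, adjusted p 0.0136), Bglap (−2.26, SE 0.35, 0.00359) and Bglap2 (−2.20, SE 0.28, 0.00157). Of 6 cartilage matrix targets and chondrogenic factors 5 were called higher and 1 lower, with a median of 0.76. Higher were Acan (2.11, SE 0.43, 0.00933), Col2a1 (1.57, SE 0.32, 0.00878), Sox9 (0.80, SE 0.17, 0.0123), Sox6 (0.72, SE 0.12, 0.00483) and Sox5 (0.54, SE 0.14, 0.023). Lower was the lubricin gene Prg4 (−1.32, SE 0.35, 0.0253), with a median of 7.04 FPKM in SFZ and 1.43 FPKM in DZ. Between genotypes in SFZ, Prg4 measured 22.24, 8.38 and 7.13 FPKM for R3-Cntl against 6.95, 2.47 and 2.13 FPKM for labelled R3-cKO. These groups did not overlap, as for 2.4% of genes, and the change of −1.45 (SE 0.52) was not called. By qRT-PCR the paper reports Prg4 as decreased in R3-cKO SFZ cells, the same direction. With DESeq2 it also lists Prg4 among the genes most lowered there in its RNA-seq, which is the source of these libraries and so not independent. By qRT-PCR it reports Acan as decreased in R3-cKO DZ cells, where Acan here changed by −0.41 (SE 0.33), not called. Between zones within a genotype Prg4 changed by −2.36 in R3-Cntl (SE 0.38, adjusted p 0.0485) and by −0.27 in labelled R3-cKO (SE 0.51, 0.88). The difference of 2.09 was not called (SE 0.70, 0.999). The R3-Cntl call of Prg4 was lost without SFZ 2 (0.228), SFZ 3 (0.101), DZ 1 (0.158), DZ 2 (0.111) or DZ 3 (0.0759). It was also lost with size factors (0.0606), after quantile normalization (0.0743) and with a pseudocount of 5 (0.0668). The same held without a filter (0.0869) and with a mean of at least 5 FPKM (0.0566). Quantile normalization left Col2a1 (0.77, adjusted p 0.18) and Prg4 (−1.08, 0.0621) short of the threshold, and Col2a1 was short of it without a filter on low values (1.57, adjusted p 0.197). Sox5 fell short without R3-Cntl SFZ 2 (0.0619), labelled R3-cKO SFZ 3 (0.0556) or labelled R3-cKO DZ 3 (0.0513), and Prg4 without labelled R3-cKO SFZ 1 (0.0515), R3-Cntl DZ 1 (0.0555), R3-Cntl DZ 2 (0.0504) or labelled R3-cKO DZ 3 (0.0554). Between genotypes 0 genes of the 3 lists were called in either zone. List medians were −0.01 for partners, −0.71 for hypertrophy and bone and 0.04 for cartilage matrix in SFZ (all genes −0.01), and 0.09, −0.42 and −0.07 in DZ (all genes 0.05).

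**Figure D4:**
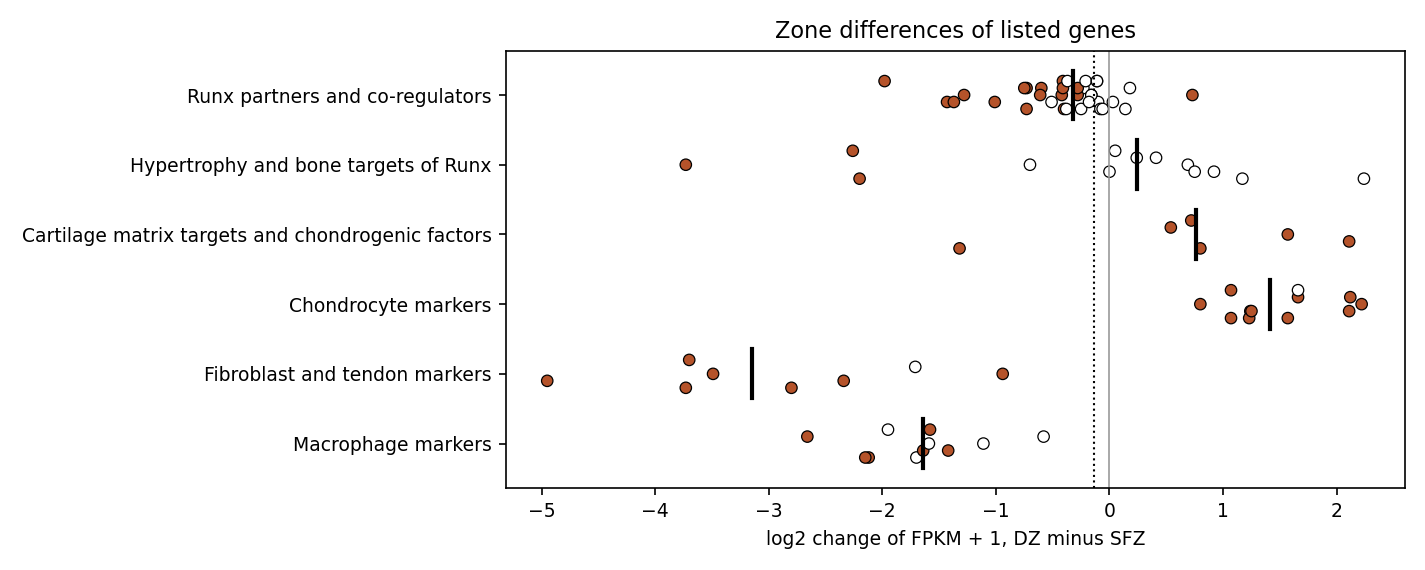
Log2 change between zones over both genotypes of each tested gene in 3 lists of Runx partners and targets and in the chondrocyte, fibroblast and macrophage marker lists; filled points were past the adjusted threshold, bars are list medians and the dotted line is the median of all genes. The partners' median was −0.33 and that of the cartilage matrix list 0.76, against −0.14 for all genes.

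Cell type markers moved with the zone as well. Chondrocyte markers summed to 16686, 5477 and 10292 FPKM in R3-Cntl SFZ and 14360, 8380 and 6333 in labelled R3-cKO SFZ, against 38398, 24206 and 31315 in R3-Cntl DZ and 25458, 16872 and 30514 in labelled R3-cKO DZ. Every DZ library was above every SFZ library. Without Col2a1, the most abundant, the sums overlapped (2240 to 7460 FPKM in SFZ, 5620 to 15600 in DZ). Of the 12 markers 11 were called higher, against 3.82% of all genes. That count was 6 without R3-Cntl SFZ 2, 5 without R3-Cntl DZ 1, and 7, 5 and 6 without labelled R3-cKO SFZ 3, DZ 1 and DZ 3. Fibroblast and tendon markers summed to 2451, 4733 and 2668 FPKM in R3-Cntl SFZ and 2505, 2284 and 6019 in labelled R3-cKO SFZ, against 59.5, 358 and 1250.4 in R3-Cntl DZ and 117, 384 and 975 in labelled R3-cKO DZ. They were lower in every DZ library (7 of 8 called lower, against 16.8% of all genes, and 4 without R3-Cntl SFZ 2, Col1a1 most abundant). Osteoblast markers, with Col1a1 again most abundant, summed to 1975, 3922, 2211, 2021, 1906 and 4852 FPKM in SFZ and to 113, 333, 1172, 97.7, 271 and 642 in DZ, in the same order of libraries, and 3 of 6 tested were called lower. Col1a1 is in the fibroblast list too, and without it the osteoblast sums overlapped (57.1 to 217 FPKM in SFZ, 26.6 to 211 in DZ). Of the tested osteoblast markers Ibsp (0.75) and Sp7 (0.24) were higher in DZ, not called. Macrophage markers were patchy: 214, 179, 7.71, 179, 17.2 and 83.8 FPKM in SFZ and 12.1, 9.45, 30.1, 8.05, 4.68 and 5.43 in DZ (6 of 11 tested called lower, Lyz2 most abundant). That count was 2 after quantile normalization and 3 with size factors. It was 1 without R3-Cntl SFZ 2 or DZ 1, 3 without R3-Cntl DZ 3, 10 without R3-Cntl SFZ 3 or labelled R3-cKO SFZ 2, and 2 without any 1 of the other libraries. In the limma fit reported, the other lists gave no call in either direction. Among the alternatives, osteoclast markers gave 1 lower call without R3-Cntl SFZ 3 or labelled R3-cKO SFZ 2, and 2 with the replicate block. Without a filter on low values, endothelial markers gave 2 lower calls and keratinocyte markers 1. Osteoclast markers summed to 40.7 to 179 FPKM (mostly Ctsk, with Calcr, Ocstamp and Dcstamp under 0.5 everywhere), and keratinocyte markers to 10.2 to 26.8 FPKM (mostly Perp, with Krt5, Krt14, Krt15 and Krt1 under 0.5). Muscle markers summed to 6.02 to 123 FPKM, highest in R3-Cntl SFZ 2 (Ckm under 0.5). Acta1 was highest on average, with 38.03 FPKM in that library, but its median of 2.57 FPKM was below the 4.1 FPKM of Tnnt3. Lymphocyte (0.78 to 1.81 FPKM), endothelial (0.05 to 5.77 FPKM) and erythroid markers (0 to 0.19 FPKM), with Lck, Pecam1 and Alas2 highest on average, held no tested gene. Between genotypes in DZ no marker was called, but 11 of 12 chondrocyte markers were lower in labelled R3-cKO (median −0.52), as were 5 of 6 osteoblast markers (−1.10), and 5 of 5 tested fibroblast and tendon markers were higher (0.44), against 0.05 for all genes. In SFZ the same medians were −0.02, −0.81 and −0.01. Of the other lists, macrophage markers were lower in 3 of 3 tested in DZ (median −0.76) and 8 of 11 in SFZ (−0.18). Muscle markers were lower in 2 of 3 in DZ (−0.52) and 4 of 4 in SFZ (−0.96). Keratinocyte markers were higher in 3 of 3 in each zone (0.27 in DZ, 0.14 in SFZ). Osteoclast markers were lower in 1 of 2 in DZ (−0.07) and 2 of 3 in SFZ (−0.14). The marker and target lists share genes and are not independent. All 6 tested osteoblast markers are also in the hypertrophy and bone list. Col2a1, Acan and Sox9 are in both the cartilage matrix and the chondrocyte lists. The part of these cell types in the zone and genotype results of the Runx genes was not tested.

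**Figure D5:**
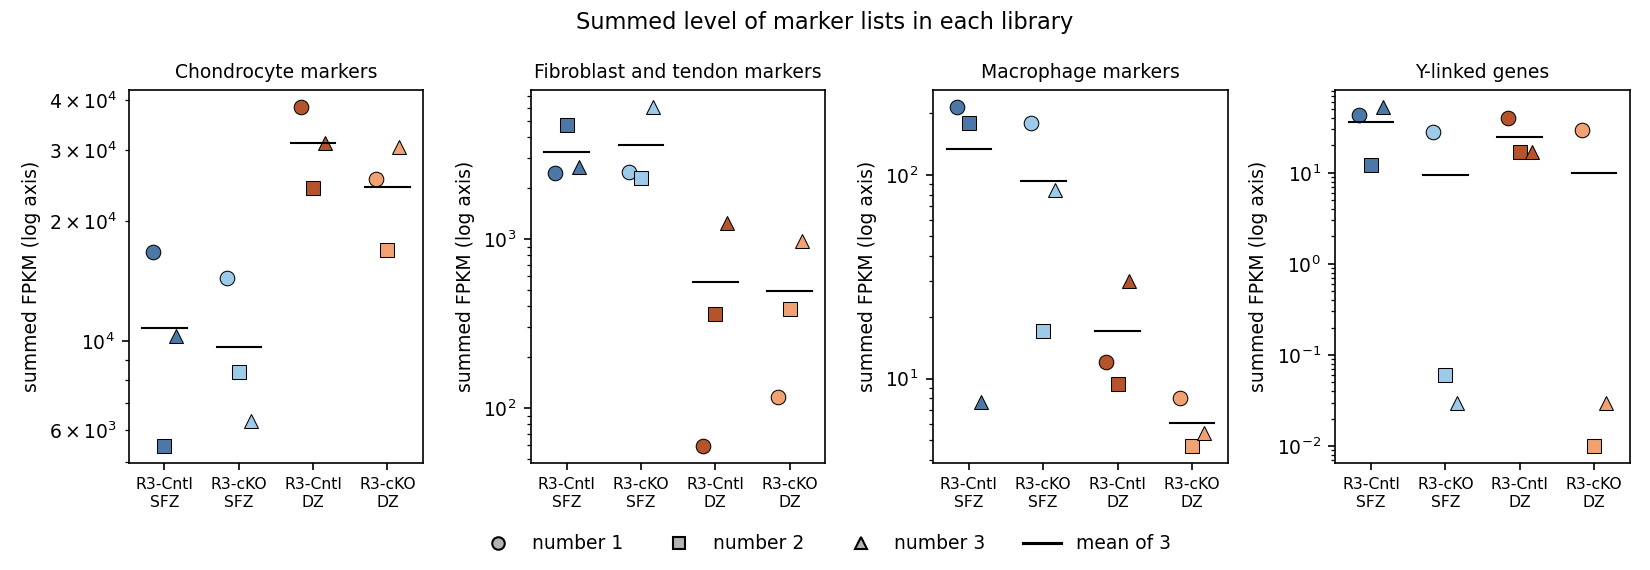
Summed FPKM of the chondrocyte, fibroblast and tendon, macrophage and Y-linked lists in each of the 12 libraries, on log axes, with the mean of each group of 3. The chondrocyte sum is higher and the fibroblast and tendon sum lower in every DZ library than in any SFZ library. Without Col2a1 the chondrocyte sums overlap (2240 to 7460 FPKM in SFZ, 5620 to 15600 in DZ).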

How the data were processed

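RNA from 12 libraries was sequenced on a BGISEQ-500 (100-base paired reads) and, per the labels, mapped to mm9 with Bowtie 0.12.2. The authors deposited 1 table of TMM-normalised FPKM; the unit was inferred from the values. Low genes were dropped (fewer than 3 libraries of a comparison at 1 FPKM or more) and the rest tested with limma 3.58.1 (R 4.3.3, mean-variance trend) on log2(FPKM + 1), with Benjamini-Hochberg adjustment over all genes tested and a threshold of 0.05. Shares were tested by exact permutation (SciPy 1.17.1, Python 3.11.15). Sums and the ratio to Cbfb, for which a test had been planned, are given without one. The fits were tested on simulated data, with outcomes not reported here. Depth was estimated from the smallest steps between values within a preset window (30400000 to 35700000 fragments), which bounds the estimate in advance.

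Named genes were the members, the 3 genes nearest each in pattern, up to 6 list genes past the threshold by size of zone change, marker extremes and the Y-linked genes. Members and lists were chosen with earlier results of these data known. Libraries came from individual mice by the study's account. The labels do not say what equal replicate numbers share. Same-numbered libraries deviated together between genotypes in DZ (r 0.653, 0.781 and 0.687) and between zones in R3-cKO (0.418, 0.781 and 0.653), which was read as pairing from the data alone. Alternatives were pseudocounts of 0.1 and 5, other filters and scalings, the replicate block, 1 fit of all libraries, and leaving out each library.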

Additional observations from a re-analysis of the deposited data

How the results depend on the processing

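Over 69 results, 986 alternatives were computed, of which 877 kept direction and side of the threshold or, for untested values and counts, moved little. Where a value below changed, the cause was not tested.

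Scaling reversed several small changes. Median-of-ratios size factors gave 0.00 for Cbfb between genotypes in SFZ, 0.08 for Runx1 between zones and 0.02 for Cbfb between zones in R3-Cntl. Quantile normalization gave 0.20 for Runx1 between zones, 0.03 for it in R3-Cntl and 0.347 points for its share. Runx2 between zones kept its direction short of the threshold with size factors (−0.29) and quantile normalization (−0.26).

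The count of genes called between zones over both genotypes was 1594 with a mean of at least 5 FPKM, a filter under which Runx1 gives no value. In R3-Cntl it was 88 and 29 with pseudocounts of 0.1 and 5, 0 without a filter (3102 at an unadjusted p under 0.05 in the limma fit reported), 10 with the stricter filter, 1 and 17 under quantile normalization and size factors, and 798 with all 12 libraries in 1 fit. In labelled R3-cKO it was 1, 1, 7 and 1 under the pseudocounts and filters, and 167 in 1 fit.

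With the replicate block, paired by number, the counts were 3965 over both genotypes, 831 in R3-Cntl and 352 in labelled R3-cKO. Runx3 between zones (0.54) came past the threshold (adjusted p 0.0198), and the Runx2 share (−15.2 points) fell short of it (adjusted p 0.141, where 0.0312 is the smallest unadjusted p from 6 pairs). No other call on a member changed. Same-numbered libraries did not deviate together between genotypes in SFZ (r 0.787, −0.0944 and −0.415) or between zones in R3-Cntl (0.575, 0.111 and −0.151), and there not every library correlated best with its own number.

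Leaving out each library in turn gave, between genotypes in SFZ, −0.14 to 0.33 for Runx1 and 0.01 to 0.20 for Runx2. There it gave −0.36 to 0.41 for Runx3 and −0.05 to 0.07 for Cbfb. In DZ it gave 0.27 to 0.72 for Runx1, −0.09 to 0.37 for Runx3 and −0.31 to −0.10 for Cbfb. Between zones it gave −0.19 to 0.04 for Runx1, 0.32 to 0.70 for Runx3, −0.32 to −0.22 for Cbfb, −3.11 to 0.765 points for the share of Runx1 and 1245 to 2796 genes called. In R3-Cntl 0 to 505 genes were called, and in labelled R3-cKO 0 to 5, with −0.10 to 0.37 for Runx1 and 0.18 to 0.94 for Runx3. The difference between genotype changes was −0.28 to 0.49 for Runx3, 0.20 to 0.69 for Runx1, 0.10 to 0.30 for Runx2 and −0.31 to −0.09 for Cbfb.

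With a pseudocount of 0.1, 1 of the 3 genes nearest Runx2 stayed. With 3 libraries a group, the genotype interval of Runx3 in SFZ spans −1.08 to 0.99, or −0.85 to 0.76 with the replicate block. Changes within these intervals were not excluded by the fit concerned. Estimated counting error was at most 5.29% for Runx2 and 1.78% for Cbfb, where the spread within a group was as low as 7.98% and 3.14%. That error rests on the depth estimate, which a preset window bounded in advance.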
